A study of Mus musculus with 8 samples.

Results

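The MHC class II genes examined here were 7 genes taken by name from the 54838 genes counted in mouse liver: H2-Aa, H2-Ab1, H2-Eb1, H2-DMa, H2-DMb1, Cd74 and Ciita. Class II molecules are pairs of an alpha and a beta chain that carry peptides from the lysosome to the cell surface, where CD4 T cells read them. The invariant chain, Cd74, fills the peptide groove until proteases cut it away, and the DM heterodimer then helps peptides to load. Ciita is the coactivator that switches on the whole set, in liver mainly in macrophages, dendritic cells, B cells and sinusoidal endothelium rather than in hepatocytes.

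RNA was measured by bulk RNA sequencing in 4 liver tumours and 4 non-tumour pieces of male wild-type C57BL/6J mice. All animals had received diethylnitrosamine (DEN), a liver carcinogen, by intraperitoneal injection on day 15 and a diet given as HFD+SW. HFD usually denotes a high-fat diet and SW is not spelled out in the labels. A time of 30 weeks is given both for the diet and for the interval since the injection, so the age at collection is uncertain, and no untreated or chow-fed liver was analysed here. It is not stated whether the pieces came from separate mice, so a p-value here measures the spread between these pieces. Library totals were 17285128 to 21977052 counts in tumours and 15446690 to 19207086 counts in non-tumour pieces. Hepatocyte markers were abundant in every library, with a summed level of 114070 to 168842 CPM (gene counts relative to the TMM-scaled library total) over 6 genes in tumours and 95667 to 109743 CPM in non-tumour pieces.

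Several libraries were near copies of one another, which sets the number of independent samples for every class II value below. Tumours 2 and 4 formed 1 such set, and non-tumour pieces 2, 3 and 4 formed another. Within these sets the chi-square of the gene counts, divided by its degrees of freedom, was 1.58 to 3.28, against 71.7 to 165 in the remaining 24 pairs. The 8 libraries were therefore treated as 5 profiles, 3 of tumour (tumour 1, tumour 2/4 and tumour 3) and 2 of non-tumour tissue (non-tumour 1 and non-tumour 2/3/4).

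The class II genes share a promoter layout known from many vertebrates, an X box bound by the RFX complex followed by a Y box bound by NF-Y, onto which Ciita is recruited, and the letters are shown because this layout is what ties the family together. RefSeq promoters (GRCm38.p6, 250 bases before to 50 after the start) were matched for 8 of 12 genes of the family, among them H2-Aa, H2-Eb1, H2-DMa and H2-DMb1. The lines below run 5′ to 3′ on the strand of the gene, and the capitals mark 9 letters around an AAC triplet at the X position and the ATTGG of the Y box. The windows lie on chromosome 17, H2-Aa at chr17:34287859-34287915 on the minus strand, H2-Eb1 at chr17:34305765-34305820, H2-Eb2 at chr17:34325532-34325587 and H2-Ob at chr17:34238807-34238860 on the plus strand, all wholly outside the counted span of their gene.
H2-Aa: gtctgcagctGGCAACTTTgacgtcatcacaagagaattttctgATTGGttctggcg
H2-Eb1: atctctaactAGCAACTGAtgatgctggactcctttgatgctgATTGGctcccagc
H2-Eb2: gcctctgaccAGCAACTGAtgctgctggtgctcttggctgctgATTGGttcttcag
H2-Ob: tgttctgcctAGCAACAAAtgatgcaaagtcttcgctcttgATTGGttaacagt

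The ATTGG began 48 bases before the RefSeq start in H2-Aa, 59 in H2-Eb1, 100 in H2-Eb2 and 57 in H2-Ob. Searched on both strands, CCAAT, which reads as the Y box above on the opposite strand, was present in promoters of all 8 genes and in 37.4% of the 32851 RefSeq promoters. The X box written as AGNNACNGA was present in 5 of the 8 genes and in 17.7% of all promoters. In H2-Oa and H2-Ob, which are among the 5, the letters at the X position (AGCAACAAA) did not match it. Their match lay elsewhere in the promoter or on the other strand. That X box followed by ATTGG within 10 to 40 bases was present in H2-Eb1, H2-DMb1 and H2-Eb2, against 0.408% of all promoters. A looser form, AAC followed by ATTGG whose first letter lies 24 to 34 bases after the first letter of AAC, was written down after the sequences had been seen and overlaps the stricter form. It was present in 7 of the 8 genes, all but H2-DMa, and in 6.18% of all promoters. The RefSeq starts listed for H2-DMa lie upstream of the gene as it was counted.

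In the annotation used for counting (GRCm38), the 5 classical and DM genes lie on chromosome 17. H2-Aa runs from 34282744 to 34287827 on the minus strand, and on the plus strand lie H2-Ab1 from 34263209 to 34269418, H2-Eb1 from 34305877 to 34316199, H2-DMa from 34135182 to 34139101 and H2-DMb1 from 34153072 to 34160230. Ciita lies on chromosome 16 from 10480059 to 10528418 on the plus strand, and 329 of its 9535 exonic bases are shared with Dexi on the opposite strand, which the strand-specific counting keeps apart. H2-DMb1 and its neighbour H2-DMb2 are near copies over part of their length. Of the distinct 50-base words in H2-DMb1 transcripts 22.7% also occur in H2-DMb2. Reads that map to both genes were not counted. How many were lost is not known, because the read length is not given, so the levels of both genes are uncertain. For the other members the share of words found in any other gene was at most 0.488%.

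Per length of exon, the order of the family was steep and nearly the same in tumour and non-tumour profiles. Cd74 was the most abundant at 50.9 ± 11.9 CPM per kb (SD over the 5 profiles), and took 40.1% to 54.7% of the summed family level in a profile. The peptide-binding chains followed, with 19.8 ± 5.79 CPM per kb for the beta chain H2-Eb1, 17.9 ± 5.03 for the alpha chain H2-Aa and 15.3 ± 4.07 for its beta partner H2-Ab1. Those 3 SDs overlap, although H2-Eb1 lay above H2-Aa in 4 of 5 profiles and H2-Aa above H2-Ab1 in all 5.

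The DM genes stood clearly below the chains they serve. H2-DMb1 averaged 2.72 ± 0.552 CPM per kb and H2-DMa 2.31 ± 0.611, which do not differ beyond their spread, with H2-DMb1 the higher in 4 of 5 profiles. Lower still were H2-DMb2 at 0.528 ± 0.178 CPM per kb and the DO genes H2-Ob at 0.313 ± 0.143 and H2-Oa at 0.204 ± 0.112, whose protein restrains DM in B cells. The coactivator Ciita averaged 0.146 ± 0.0464 CPM per kb, near the bottom of the family it controls. H2-Eb2 averaged 0.0683 ± 0.0698 CPM per kb, and neighbours from H2-Ob down to H2-Eb2 lay within each other's spread.

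**Figure D1:**
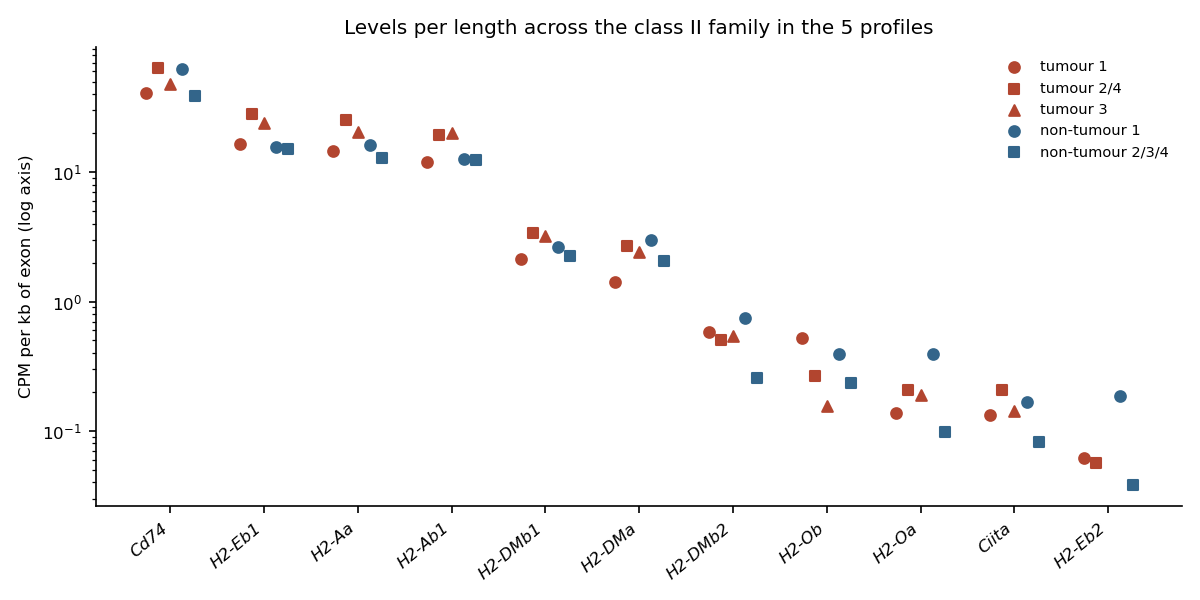
Level of 11 class II family genes in CPM per kb of exon, on a log axis, with 1 point for each of the 3 tumour profiles (red) and 2 non-tumour profiles (blue). Cd74 was highest in each profile, and a gap separates the chains from the DM genes. H2-Eb2 had 0 reads in tumour 3, which a log axis cannot show.

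H2-Ea, the alpha partner of the H2-Eb1 chain, had 0 reads in each of the 4 tumour and 4 non-tumour libraries. A count of 0 allows up to 0.137 CPM in tumour 1, the deepest library, and up to 0.194 CPM in non-tumour 3, the shallowest (3 counts of the library total, counting error only). C57BL/6 mice are known to carry a deletion at this gene and to lack the E alpha protein, and the annotation lists the gene as a pseudogene. H2-Eb1 RNA was present in every library beside it, at 433 to 681 reads in tumours and 269 to 362 reads in non-tumour pieces.

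The peptide-binding chains had higher mean levels in tumours than in non-tumour pieces, by 0.45 to 0.59 on the log2 scale, and none of them passed the test over all genes. H2-Aa was measured at 27.1, 47.9, 38.5 and 47.0 CPM in tumours 1 to 4, against 30.2, 25.3, 24.3 and 23.1 CPM in non-tumour pieces 1 to 4. Tumour 1 lay within the non-tumour range and the other 3 tumours above it. The profile means were 37.7 ± 10.2 CPM in tumours (SD, n = 3), against 27.2 ± 4.25 CPM in non-tumour tissue (SD, n = 2), a log2 fold change of 0.48 ± 0.26 (SE) with an adjusted p of 0.995 in edgeR's quasi-likelihood test. It was 0.29 without the tumour 2/4 profile.

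H2-Ab1, which pairs with H2-Aa, was measured at 19.5, 30.6, 33.1 and 32.4 CPM in tumours 1 to 4, against 20.8, 21.4, 20.04 and 19.9 CPM in non-tumour pieces 1 to 4. Tumour 1 was again the exception and lay below each non-tumour piece, whereas the non-tumour pieces were tightly grouped. Means were 28.0 ± 7.47 CPM in the tumour profiles, against 20.7 ± 0.249 CPM in the non-tumour profiles, a log2 fold change of 0.45 ± 0.26 (SE) with an edgeR adjusted p of 0.995. It was 0.30 without tumour 3.

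In the 5-profile edgeR fit H2-Eb1 had the largest fold change of the members, and with all 5 profiles it alone had tumour and non-tumour profiles that did not overlap. Ciita had the larger fold change with 8 separate libraries (0.74, against 0.67 for H2-Eb1), with limma voom (0.66, against 0.55) and without non-tumour 1 (0.99, against 0.59). H2-Eb1 was measured at 19.7, 33.7, 28.3 and 32.5 CPM in tumours 1 to 4, against 18.5, 16.98, 18.3 and 18.02 CPM in non-tumour pieces 1 to 4. Every tumour library lay above every non-tumour library, with tumour 1 above by little. Means were 27.0 ± 6.82 CPM in the tumour profiles, against 18.2 ± 0.528 CPM in the non-tumour profiles. The log2 fold change was 0.59 ± 0.24 (SE), with an unadjusted edgeR p of 0.0499 and an adjusted p of 0.995.

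**Figure D2:**
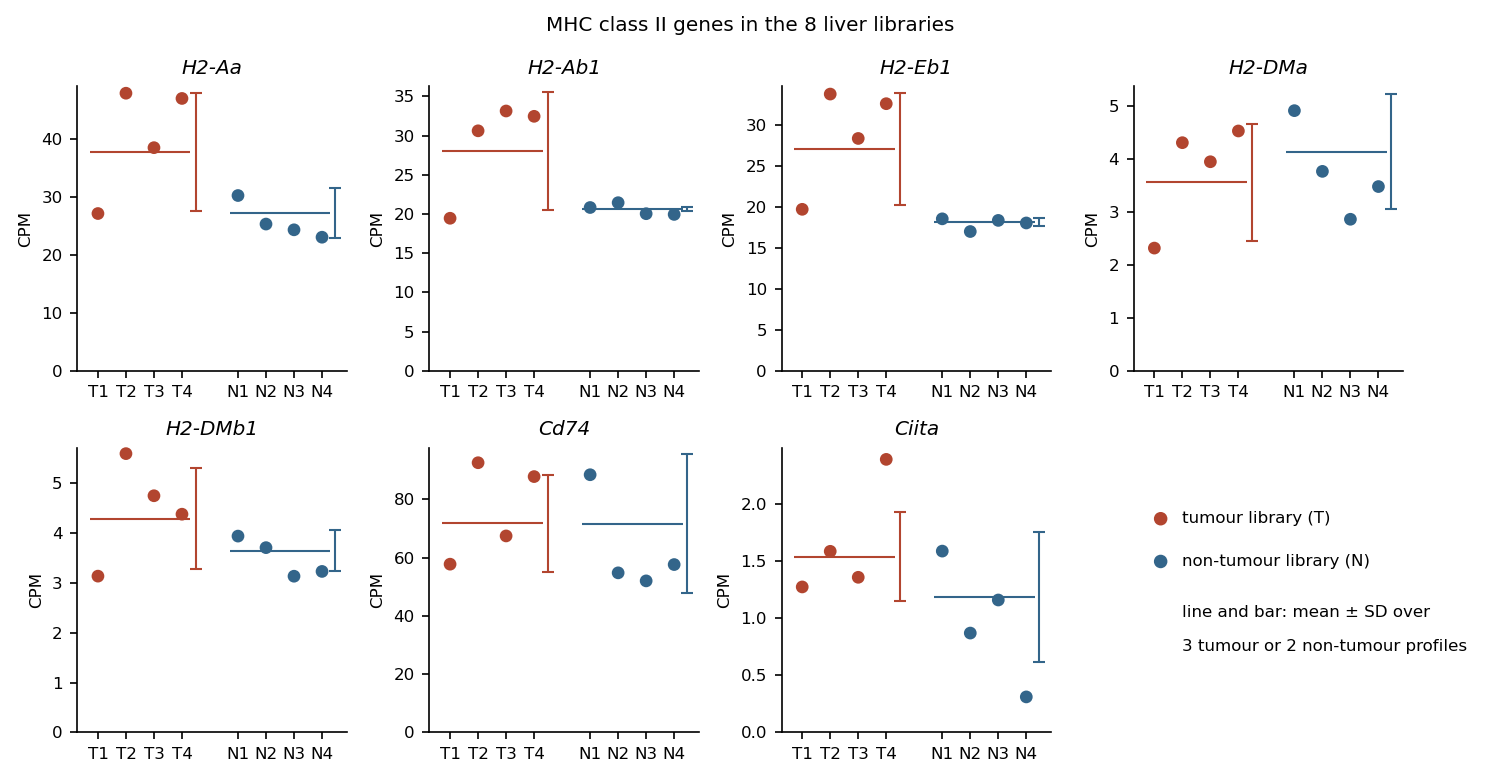
Level of each member in CPM in tumour libraries 1 to 4 (T, red) and non-tumour libraries 1 to 4 (N, blue), with the mean and SD over the 3 tumour and 2 non-tumour profiles; T2 and T4 are near copies, as are N2, N3 and N4. T1 is the lowest tumour for H2-Aa, H2-Ab1 and H2-Eb1, and N1 the highest non-tumour piece for each member but H2-Ab1.

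The invariant chain Cd74 had nearly equal means in both groups. It was measured at 57.7, 92.5, 67.4 and 87.8 CPM in tumours 1 to 4, against 88.4, 54.8, 52.0 and 57.6 CPM in non-tumour pieces 1 to 4. Non-tumour 1 stood with the highest tumours, and the other non-tumour libraries lay below the lowest tumour. Means were 71.8 ± 16.7 CPM in the tumour profiles, against 71.6 ± 23.8 CPM in the non-tumour profiles, a log2 fold change of 0.02 ± 0.28 (SE) with an edgeR adjusted p of 0.999. That value depended on which libraries entered. It was 0.37 without non-tumour 1, 0.15 without tumour 1 and 0.28 with 8 separate libraries, and it was -0.18 without the tumour 2/4 profile and -0.28 without the non-tumour 2/3/4 profile. It was also below 0 with limma voom (-0.02) and with no expression filter (-0.01).

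The DM genes, which edit the peptide load, had log2 fold changes of opposite sign, both within 1 SE of 0. H2-DMa was measured at 2.32, 4.31, 3.95 and 4.53 CPM in tumours 1 to 4, against 4.91, 3.77, 2.86 and 3.48 CPM in non-tumour pieces 1 to 4. The groups overlapped, with tumour 1 the lowest and non-tumour 1 the highest of all libraries. Its log2 fold change was -0.20 ± 0.36 (SE), at an edgeR adjusted p of 0.995, and was 0.03 without tumour 1, 0.06 without non-tumour 1, 0.01 with 8 separate libraries, -0.39 without the tumour 2/4 profile and -0.43 without the non-tumour 2/3/4 profile.

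H2-DMb1 was measured at 3.14, 5.60, 4.75 and 4.38 CPM in tumours 1 to 4, against 3.94, 3.71, 3.14 and 3.23 CPM in non-tumour pieces 1 to 4. Tumour 1 lay at the foot of the non-tumour range and the other 3 tumours above it. Means were 4.29 ± 1.01 CPM in the tumour profiles, against 3.65 ± 0.412 CPM in the non-tumour profiles, and the log2 fold change was 0.25 ± 0.30 (SE) with an edgeR adjusted p of 0.995. It was 0.43 without tumour 1, 0.16 without tumour 3, 0.13 without the tumour 2/4 profile and 0.15 without the non-tumour 2/3/4 profile.

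Ciita was close to the depth limit. Its reads numbered 28, 32, 22 and 48 in tumours 1 to 4, against 31, 15, 17 and 5 in non-tumour pieces 1 to 4, which gave 1.27, 1.58, 1.36 and 2.39 CPM in tumours and 1.59, 0.869, 1.16 and 0.311 CPM in non-tumour pieces. The near copies tumour 2 and tumour 4 differed from each other by more than tumours 1 and 3 did, and non-tumour 4 had fewer reads than its near copies. Means were 1.54 ± 0.390 CPM in the tumour profiles, against 1.18 ± 0.571 CPM in the non-tumour profiles, a log2 fold change of 0.44 ± 0.46 (SE) with an edgeR adjusted p of 0.995. The value was 0.99 without non-tumour 1, 0.74 with 8 separate libraries, 0.30 without tumour 4, 0.28 without non-tumour 4, 0.20 without the tumour 2/4 profile and -0.01 without the non-tumour 2/3/4 profile.

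Over all members, 6 of 7 had a positive log2 fold change and their median was 0.44, beside a median of 0.01 over the 13650 genes tested. With the 5 profiles edgeR called 0 of 7 members, and 0 genes in all (0%). At an unadjusted p under 0.05 it counted 451 genes (3.30%) and 1 member, H2-Eb1. DESeq2 called 2 genes and limma voom 0 (411 at an unadjusted p under 0.05), in neither case a member. Without tumour 3, edgeR called 5 genes, none of them a member. In 1261 genes (9.24%) every tumour profile lay above both non-tumour profiles and in 1245 (9.12%) below them; among the members there were 1 (H2-Eb1) and 0. Without tumour 1 the first count was 4 of 7 (H2-Aa, H2-Ab1, H2-Eb1 and H2-DMb1; 14.1% of all genes), and without non-tumour 1 it was also 4 (H2-Aa, H2-Eb1, Cd74 and Ciita; 22.4% of all genes).

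Taking the 8 libraries as separate samples gives near copies the weight of independent ones. That fit called 56 of 12880 genes (0.435%) and 0 of 7 members, with the lowest adjusted edgeR p among the members, 0.0945, at H2-Eb1. Leaving out tumour 1 brought 3 members past the threshold, H2-Eb1 with an adjusted edgeR p of 0.0233, H2-Ab1 with 0.0349 and H2-Aa with 0.0451, among 65 genes. Leaving out tumour 3 brought H2-Eb1 past it with an adjusted edgeR p of 0.0342, among 1798 genes. The number of genes called was 766 without non-tumour 1 and 0 without any 1 of tumours 2 and 4 or non-tumour pieces 2, 3 and 4, with 0 members each time.

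**Figure D3:**
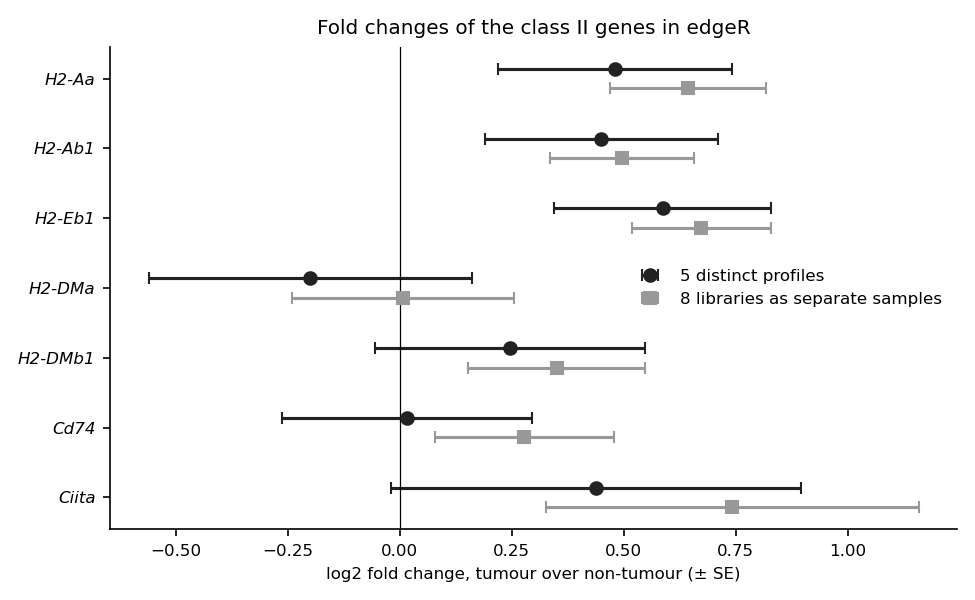
Log2 fold change of each member, tumour over non-tumour, with its standard error, from edgeR on the 5 distinct profiles (black) and on the 8 libraries as separate samples (grey). H2-Aa, H2-Ab1 and H2-Eb1 lie between 0.45 and 0.59 in the 5-profile fit, and Cd74, H2-DMa, H2-DMb1 and Ciita lie within 1 SE of 0.

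Ratios between members were taken within each library, per length of exon, 9 ratios in all. H2-DMa was 0.0976, 0.103, 0.117 and 0.110 times the level of H2-Aa in tumours 1 to 4, against 0.186, 0.170, 0.134 and 0.172 times in non-tumour pieces 1 to 4. All tumour libraries lay below all non-tumour libraries. On the log2 scale the ratio averaged -3.23 ± 0.13 in tumours and -2.54 ± 0.16 in non-tumour tissue (SD, n = 3 and n = 2 profiles). The two-sided exact permutation p was 0.2, the smallest that 3 against 2 profiles can give, and 0.45 after adjustment over the 9 ratios.

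Cd74 relative to the mean of H2-Aa, H2-Ab1 and H2-Eb1 was 2.86, 2.64 and 2.22 in tumours 1, 2/4 and 3, against 4.23 in non-tumour 1 and 2.88 in non-tumour 2/3/4. The gap between tumour 1 and non-tumour 2/3/4 was small, and most of the difference came from non-tumour 1. The ratios of H2-DMb1 to H2-Ab1 and of H2-DMa to H2-DMb1 were likewise lower in each tumour profile than in both non-tumour profiles. Single libraries of the groups overlapped in all 3 of these ratios, which had the same exact permutation p of 0.2 (adjusted 0.45). H2-Eb1 over H2-Ab1 was 1.40, 1.45 and 1.18 in tumours 1, 2/4 and 3, against 1.23 and 1.20 in non-tumour 1 and 2/3/4, and these overlapped (exact permutation p of 0.6, adjusted 0.9).

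**Figure D4:**
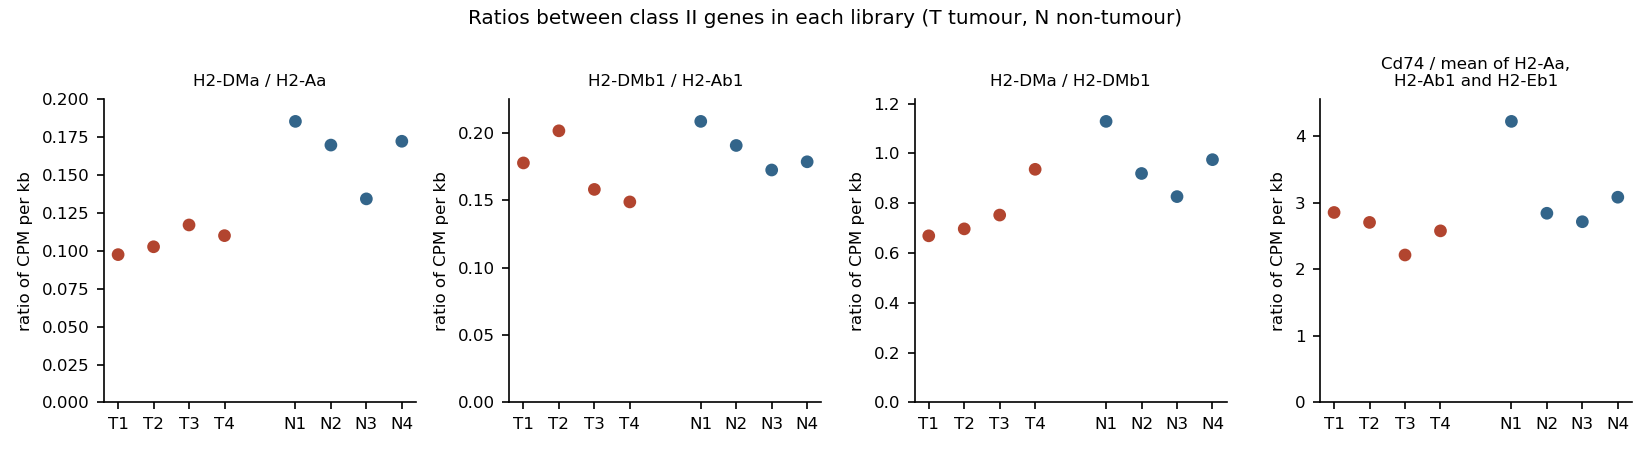
Ratios of CPM per kb between class II genes in tumour libraries (T, red) and non-tumour libraries (N, blue). H2-DMa over H2-Aa lies between 0.0976 and 0.117 in tumours and between 0.134 and 0.186 in non-tumour pieces, whereas single libraries overlap between the groups in the other 3 ratios.

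The other class II genes gave few reads. H2-DMb2, at 15 to 22 reads in tumours and 5 to 25 reads in non-tumour pieces, had a log2 fold change of 0.19 ± 0.54 (SE). H2-Ob, at 8 to 36 reads in tumours and 7 to 24 reads in non-tumour pieces, had one of 0.04 ± 0.57 (SE). H2-Oa (4 to 6 reads in tumours, 1 to 10 in non-tumour pieces) and H2-Eb2 (0 to 3 reads in tumours, 0 to 8 in non-tumour pieces) were below the expression filter, and 200 exonic bases of H2-Oa overlap BC051537 on the opposite strand.

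Of the 7 factors that bind the X and Y boxes, 0 were called, 1 had a positive log2 fold change, and their median was -0.11. The RFX subunit Rfx5 was at 7.06 ± 0.892 CPM in the tumour profiles, against 8.41 ± 1.40 CPM in the non-tumour profiles (SD, n = 3 and n = 2), with a log2 fold change of -0.25. The remaining RFX subunits had values of -0.17 (Rfxank) and -0.11 (Rfxap). The NF-Y subunits had log2 fold changes of -0.05 (Nfya), -0.07 (Nfyb) and 0.07 (Nfyc), and Creb1, which binds the X2 part of the box, had -0.11. Tumour and non-tumour profiles overlapped for all 7.

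Interferon gamma is the main known inducer of Ciita outside of B cells and dendritic cells. Its transcript Ifng gave 1 read in tumour 2, 1 read in non-tumour 1 and 0 elsewhere. Of 8 genes on the route from Ifng to Ciita 6 were tested, 0 were called, 4 were positive, and their median log2 fold change was 0.14. The receptor chain Ifngr1 (0.58 ± 0.50, SE) and the kinase Jak1 (-0.06 ± 0.29, SE) overlapped between groups.

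Genes that act on class II molecules after synthesis had mostly negative log2 fold changes, none called. Among 9 lysosomal processing genes 2 were positive and the median was -0.19. Ifi30, a thiol reductase, was at 15.7 ± 2.02 CPM in the tumour profiles, against 21.6 ± 7.28 CPM in the non-tumour profiles (SD), with a log2 fold change of -0.45 ± 0.24 (SE). Sppl2a, which clears the membrane stub left from Cd74, was at 132 ± 24.6 CPM in the tumour profiles, against 165 ± 6.60 CPM in the non-tumour profiles (SD), and was the only one of the 9 whose profiles did not overlap. Over all genes tested, the share with every tumour profile below both non-tumour profiles was 9.12%, so 1 of 9 is near that share. The most abundant, cathepsin B (Ctsb), had a log2 fold change of -0.28 ± 0.24 (SE). All 3 genes of surface turnover were below 0, among them the ubiquitin ligases Marchf8 (-0.26 ± 0.18, SE) and Marchf1 (-0.73 ± 0.60, SE).

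On the side of the T cell, 0 of 7 genes for the T cell receptor complex and class II coreceptors were called, 1 was positive, and the median log2 fold change was -0.21. Cd4, the coreceptor that binds class II, was measured at 1.55, 1.24, 2.16 and 2.04 CPM in tumours 1 to 4, against 3.12, 3.19, 3.68 and 3.91 CPM in non-tumour pieces 1 to 4. Each tumour lay below each non-tumour piece, opposite in direction to H2-Eb1, with a log2 fold change of -0.91 ± 0.31 (SE), an unadjusted edgeR p of 0.0249 and an adjusted p of 0.995. Cd3e, which marks T cells in general, was at 0.645 ± 0.153 CPM in the tumour profiles, against 0.953 ± 0.171 CPM in the non-tumour profiles (SD). Its log2 fold change was -0.56 ± 0.43 (SE). The other general T cell genes of the list had values of -0.49 ± 0.50 (Trac), -0.04 ± 0.52 (Cd3d), -0.02 ± 0.35 (Trbc2) and 0.02 ± 0.42 (Cd3g), all on few reads. Every tumour profile lay below both non-tumour profiles for 2 of the 7 genes, Cd4 and Cd3e. The share over all genes tested was 9.12%.

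Among 6 costimulation genes 5 were tested, 0 were called, 2 were positive, and the median was -0.08. Cd40, the receptor through which T cells activate antigen-presenting cells, was at 3.18, 3.23 and 0.0617 CPM in tumours 1, 2/4 and 3, against 1.02 in non-tumour 1 and 0.450 in non-tumour 2/3/4, so that tumour 3 was lowest of all. Cd86 was at 3.10 ± 0.307 CPM in the tumour profiles, against 4.06 ± 3.23 CPM in the non-tumour profiles (SD), and Cd274 had a log2 fold change of -0.47 ± 0.51 (SE). Of 6 genes for ligands and partner receptors of Cd74 5 were tested, 0 called and 2 positive, with a median of -0.03. The cytokine Mif had a log2 fold change of -0.30 ± 0.32 (SE), its relative Ddt -0.03 ± 0.26 and the coreceptor Cd44 -0.79 ± 0.48.

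In bulk tissue, a different number of class II positive cells and a different amount of class II RNA per cell cannot be told apart. The markers of the cells that carry class II are given for that reason. The 7 members summed to 131, 214 and 177 CPM in tumours 1, 2/4 and 3, against 168 and 125 CPM in non-tumour 1 and 2/3/4. The 11 Kupffer cell markers summed to 349, 327 and 267 CPM in tumours 1, 2/4 and 3, against 869 and 293 CPM in non-tumour 1 and 2/3/4. Non-tumour 1 thus stood far above the rest, and 0 of the 11 had a positive log2 fold change; Vsig4 (-0.94 ± 0.33, SE), Folr2 (-0.88 ± 0.36) and Cd5l (-0.90 ± 0.49) were all uncalled. Non-tumour 1 was also the highest non-tumour piece for 6 of 7 members, all but H2-Ab1, although for H2-Eb1 by little (18.5 CPM, against 18.3 CPM in non-tumour 3).

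Sinusoidal endothelial markers, 8 genes, followed the Kupffer cell markers, with sums of 230, 213 and 181 CPM in tumours 1, 2/4 and 3, against 356 and 166 CPM in non-tumour 1 and 2/3/4. None of them was positive and their median log2 fold change was -0.29, with -0.57 ± 0.34 (SE) for Oit3, -0.60 ± 0.48 for Pecam1 and -0.27 ± 0.23 for Clec4g. Monocyte and recruited macrophage markers, 9 genes, summed to 166, 142 and 60.8 CPM in tumours 1, 2/4 and 3, against 239 and 87.1 CPM in non-tumour 1 and 2/3/4. In that list 6 of 9 were positive, and Cx3cr1 (1.40 ± 0.53, SE) was the one with separate profiles, whereas the most abundant, Lyz2, had -0.74 ± 0.58 and Gpnmb 1.69 ± 0.97. Over all genes tested, 9.24% had every tumour profile above both non-tumour profiles, so 1 of 9 is near that share. Cx3cr1 was low, at 1.02 ± 0.434 CPM in the tumour profiles, against 0.386 ± 0.0388 CPM in the non-tumour profiles (SD).

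Markers of B cells and dendritic cells, which are professional antigen-presenting cells, gave few reads. B cell markers, 10 genes, summed to 9.55, 9.60 and 8.39 CPM in tumours 1, 2/4 and 3, against 9.36 and 5.31 CPM in non-tumour 1 and 2/3/4. Of 9 tested 7 were positive, and Cd79b, Blk and Fcrla were higher in each tumour profile than in both non-tumour profiles, although 0 were called. Over all genes tested, the share with such separation was 9.24%. Fcrla had a log2 fold change of 1.28 ± 0.46 (SE) and the most abundant, Cd79b, of 0.50 ± 0.38, both at less than 2 CPM in each profile. Dendritic cell markers, 10 genes, summed to 8.91, 10.4 and 9.44 CPM in tumours 1, 2/4 and 3, against 10.5 and 7.13 CPM in non-tumour 1 and 2/3/4. Zbtb46 had a log2 fold change of -0.12 ± 0.29 (SE), Cd209a of 1.37 ± 0.68 and Itgae of -1.38 ± 0.54.

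The class II sum and the macrophage and endothelial sums ordered the profiles differently. The members were highest in tumour 2/4, where Kupffer cell and endothelial sums were in the middle of the range. Tumour 1 had the second lowest class II sum beside the second highest Kupffer cell and endothelial sums. The B cell sum, like the class II sum, was highest in tumour 2/4 (9.60 CPM) and lowest in non-tumour 2/3/4 (5.31 CPM). Between these ends the order differed, with B cell sums of 9.55 CPM in tumour 1, 9.36 in non-tumour 1 and 8.39 in tumour 3. The class II sums of these profiles were 131, 168 and 177 CPM. The dendritic cell sum was highest in non-tumour 1 (10.5 CPM), then fell from tumour 2/4 (10.4) through tumours 3 (9.44) and 1 (8.91) to non-tumour 2/3/4 (7.13). The B cell and dendritic cell sums rest on few reads. No marker in these 5 lists was at 0 in every library, and the part of cell composition in the class II values was not tested.

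**Figure D5:**
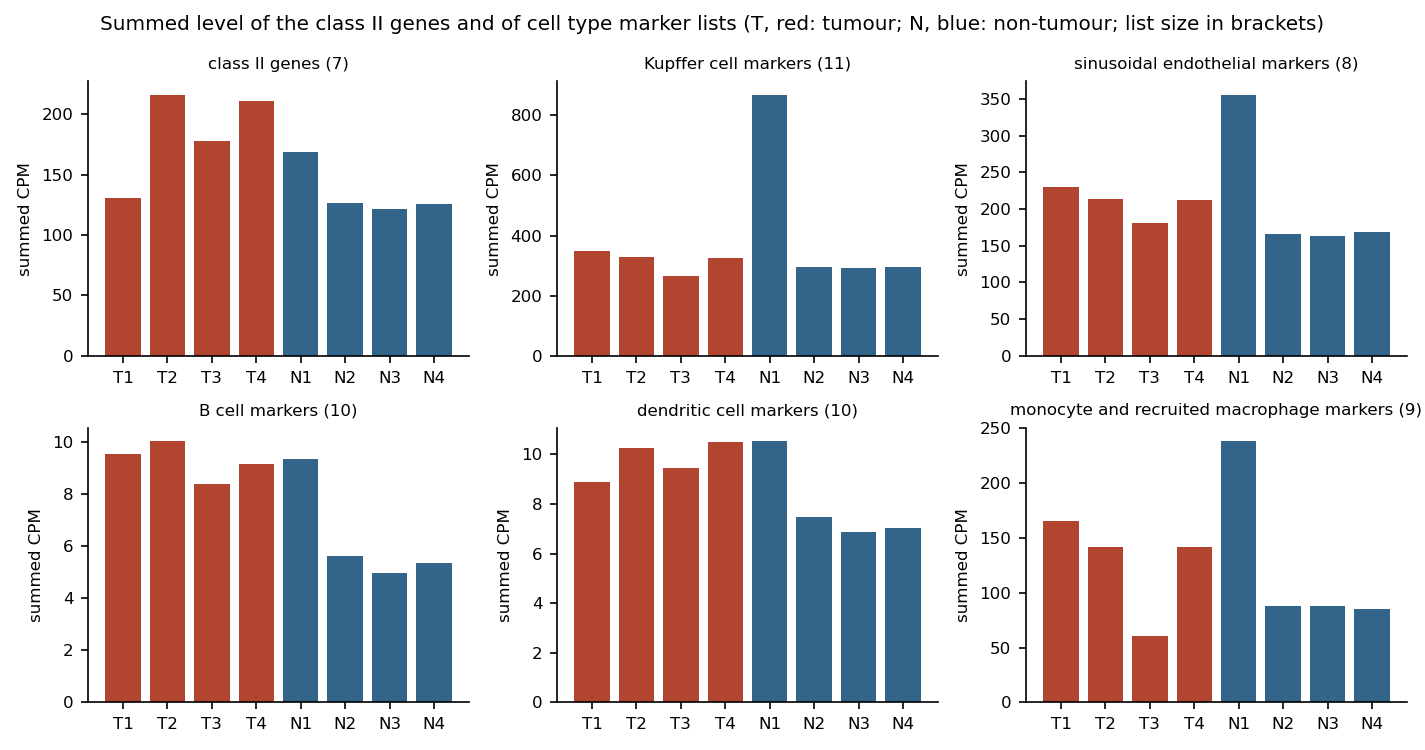
Summed CPM of the 7 class II members and of marker lists for 5 cell types in tumour libraries (T, red) and non-tumour libraries (N, blue). The Kupffer cell, endothelial and monocyte sums peak in N1, whereas the class II sum peaks in T2 and T4.

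Markers of cells that do not usually carry class II varied as well. Cholangiocyte markers, 7 genes, summed to 405, 196 and 22.2 CPM in tumours 1, 2/4 and 3, against 35.8 and 36.6 CPM in non-tumour 1 and 2/3/4; the tumour with the highest sum was the one with the lowest H2-Aa, H2-Ab1 and H2-Eb1. Spp1 made up much of it, at 205, 102 and 18.9 CPM in tumours 1, 2/4 and 3, against 22.8 and 27.7 CPM in non-tumour 1 and 2/3/4, and Krt7 had a log2 fold change of 2.46 ± 1.01 (SE). Stellate cell markers stayed within 239 to 265 CPM in tumour profiles and 232 to 258 CPM in non-tumour profiles, with Lrat at -0.67 ± 0.18 (SE), Rgs5 at -0.52 ± 0.29 and Dcn at 0.03 ± 0.23. T and NK cell markers summed to 3.09 to 4.42 CPM in tumour profiles and 3.38 to 4.57 CPM in non-tumour profiles, and Cd8a, Ncr1, Klrb1c and Gzma each had 0 reads in at least 1 library. In that list the log2 fold changes were -1.83 ± 1.05 (SE) for Cd8a, 1.39 ± 0.76 for Klrb1c and 0.25 ± 0.72 for Nkg7, the most abundant. Among hepatocyte markers they were 0.52 ± 0.43 (SE) for Alb, 0.56 ± 0.35 for Apoa1 and -0.69 ± 0.33 for Cps1. The part of these cells in the class II values was not tested.

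Centred on its own mean over the 5 profiles, the mean log2 CPM of H2-Aa, H2-Ab1, H2-Eb1 and Cd74 was -0.27, 0.45 and 0.23 in tumours 1, 2/4 and 3, against -0.07 and -0.35 in non-tumour 1 and 2/3/4. The other members followed that pattern to different degrees, with a root mean square difference of 0.0894 for H2-DMb1, 0.292 for Ciita and 0.308 for H2-DMa. Among 8739 other genes with a mean of at least 5 CPM, the nearest were Cc2d1b (0.106), Tkfc (0.108), Adora1 (0.109), Palmd (0.111), Rps6ka1 (0.114) and Prox1 (0.119). Tkfc, a kinase of fructose metabolism, was at 298, 424 and 390 CPM in tumours 1, 2/4 and 3, against 346 and 238 CPM in non-tumour 1 and 2/3/4. Prox1, a transcription factor of hepatocytes and lymphatic endothelium, was at 62.4, 101 and 76.0 CPM in tumours 1, 2/4 and 3, against 76.3 and 64.0 CPM in non-tumour 1 and 2/3/4. The likeness rests on 5 points, which may share library preparation, and no test was made of it.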

How the data were processed

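RNA from 8 liver pieces was sequenced by the study. The deposited files hold raw counts per gene that the authors made with featureCounts 1.6.2, per the file headers, on exons of Ensembl release 95 at strand setting 2, leaving out multi-mapping reads. STAR 2.5.0 and Subread 1.6.2 are named in the submitters' processing notes, as is GRCm38. The sources used here give neither trimming nor read length.

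Symbols matched 54723 of 54838 gene IDs. Libraries whose counts differed by a chi-square under 10 per degree of freedom (over genes with at least 20 reads in both together) were summed into 1 profile. Tests used edgeR 4.0.16 in R 4.3.3 (robust glmQLFit, glmQLFTest, TMM, filterByExpr with minimum count 10 and total 15), with p-values adjusted by Benjamini-Hochberg across every gene tested, called under 0.05. CPM is TMM-scaled, and a profile's CPM is the mean of its libraries. CPM per kb divides by the exon length in the count files. Ratios were compared on the log2 scale with an exact permutation test over profiles. All fits were first tested on simulated data.

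The named genes were all members, other class II genes and promoter factors, and from each further list the 2 with the lowest p and the most abundant, plus the 6 genes nearest in pattern. Further genes (Cd79b and Blk, Cd3d, Cd3g, Trac and Trbc2, Tkfc and Prox1 values, genes at 0 reads) were singled out after their values were seen. Some genes that this rule names are not reported here. The members and lists were chosen with earlier results of these data known. Alternatives were other scalings and filters, DESeq2 1.42.0, limma voom 3.58.1, 8 separate libraries with and without a replicate block, and leaving out libraries, profiles or the 10 most abundant genes. Promoter sequences are from RefSeq (GRCm38.p6).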

Additional observations from a re-analysis of the deposited data

How the results depend on the processing

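Across 28 alternatives, 181 of 196 member fold changes kept their direction and their side of the threshold, 4 passed it and 11 changed sign. The median member log2 fold change (0.44) ran from 0.15 without the non-tumour 2/3/4 profile to 0.65 with 8 separate libraries and without tumour 1. The number of genes called, 0 with 5 profiles, was 56 with 8 separate libraries, 427 with no expression filter and 2 with DESeq2; it ran from 0 to 5 when a library or set of near copies was left out of the 5 profiles (5 without tumour 3), and from 0 to 1798 when a library was left out of the 8 (65 without tumour 1, 1798 without tumour 3 and 766 without non-tumour 1). Members called, 0 with 5 profiles and with 8 libraries, ran from 0 to 3 when a library was left out of the 8 (3 without tumour 1, 1 without tumour 3). The count of members whose tumour profiles all lay above the non-tumour ones, 1, ran from 1 to 4 in the alternatives added after seeing the data (4 without tumour 1 and 4 without non-tumour 1; fewer profiles make separation easier). The log2 fold change of H2-DMa, -0.284 without tumour 3, changed sign to 0.00683 with 8 libraries, 0.0325 without tumour 1, 0.0571 without non-tumour 1, and with 8 libraries to 0.182 without tumour 1, 0.154 without non-tumour 1 and 0.00802 without non-tumour 2. That of Cd74 was -0.0114 with no expression filter, -0.0220 with limma voom, -0.178 without tumour 2/4 and -0.276 without non-tumour 2/3/4, and that of Ciita was -0.00983 without non-tumour 2/3/4; the cause was not tested. With the replicate number as a block over the 8 libraries, 0 genes and 0 members were called and the median was 0.467. Equal numbers correlated at 0.336, -0.119, 0.259 and -0.103, so the numbers were not taken to pair the samples. Depth limits Ciita, H2-Oa, H2-Ob, H2-Eb2 and the B, dendritic, T and NK cell markers, and 3 against 2 profiles limit every test.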
